A study of Mus musculus with 20 samples.

Results

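A set of 10 genes of blood vessel growth and of transforming growth factor beta (TGF-beta) signalling was followed across sorted tumour myeloid cells. They are the ligands Vegfa, Vegfb, Vegfc, Pgf, Tgfb1 and Tgfb2, the receptors Flt1 and Nrp1, the matrix protein thrombospondin-1 (Thbs1) and the TGF-beta-induced matrix protein Tgfbi. These 10 of the 36528 gene models in the count files were given by name, chosen with earlier results of these data known, and were found by their Entrez numbers. All 20 libraries came from tumours of MC38, a mouse colon carcinoma line, with RNA taken 7 days after treatment started. The groups were macrophages from control tumours, macrophages from tumours treated with an antibody against PD-L1 (aPDL1 in the labels), monocytes from control tumours and monocytes from anti-PD-L1 tumours, with n = 5 in each. PD-L1 is the ligand through which tumour and myeloid cells restrain T cells carrying PD-1. The sources used here do not give the mouse strain, the age, the control agent or the surface markers used for sorting. They also do not state whether each library came from its own animal, so p-values refer to a spread between samples that may be technical. Control libraries all carry lower sample numbers than treated ones, and treatment cannot be told apart from whatever follows that order.

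Vascular endothelial growth factors are secreted dimers that act mainly on endothelial cells. Vegfa drives the sprouting of blood vessels through Kdr, Flt1 binds Vegfa, Vegfb and placental growth factor (Pgf) and can act as a decoy, Nrp1 is a coreceptor, and Vegfc acts mainly on lymphatic vessels through Flt4. TGF-beta is secreted in a latent form, held by binding proteins in the matrix, and is released by integrins, proteases or thrombospondin-1 before it signals through Tgfbr2, Tgfbr1 and Smad proteins. Tumour macrophages and monocytes are known sources of Vegfa and of TGF-beta, while fibroblasts make collagens and other factors, so collagen RNA was measured beside each gene.

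The promoter windows of the 3 VEGF genes are shown because Vegfb and Vegfc were the members that fell after treatment, each in 1 cell type, while Vegfa, their relative, did not pass the test in either. Each run is the 250 bases before the annotated start, from RefSeq on GRCm38.p6, written 5′ to 3′ on the gene's strand, with GC boxes (GGGCGG or its reverse complement CCGCCC) in capitals. The Vegfa window shown, 1 of 2 in the table, is chr17:46032378-46032627 on the minus strand, the Vegfb window is chr19:6987652-6987901 on the minus strand, and the Vegfc window is chr8:54077282-54077531 on the plus strand.
Vegfa: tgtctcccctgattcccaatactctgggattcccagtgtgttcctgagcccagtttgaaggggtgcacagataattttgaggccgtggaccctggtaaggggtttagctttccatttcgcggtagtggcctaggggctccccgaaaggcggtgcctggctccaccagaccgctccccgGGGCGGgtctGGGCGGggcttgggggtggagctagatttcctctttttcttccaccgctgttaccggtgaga
Vegfb: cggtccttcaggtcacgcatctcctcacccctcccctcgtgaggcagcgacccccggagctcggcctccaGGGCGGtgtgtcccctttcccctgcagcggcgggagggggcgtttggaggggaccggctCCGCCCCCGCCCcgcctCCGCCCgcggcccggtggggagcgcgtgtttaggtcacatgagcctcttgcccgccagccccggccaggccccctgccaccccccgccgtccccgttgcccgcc
Vegfc: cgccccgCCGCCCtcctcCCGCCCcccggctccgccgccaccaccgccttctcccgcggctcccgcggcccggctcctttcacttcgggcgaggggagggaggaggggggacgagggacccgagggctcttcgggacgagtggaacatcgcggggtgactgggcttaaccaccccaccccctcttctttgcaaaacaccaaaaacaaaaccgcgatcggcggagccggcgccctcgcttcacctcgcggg
Vegfb held 4 GC boxes in its window, and Vegfa and Vegfc held 2 each. Of all 32851 windows of this length in the table, 32.7% held at least 1 GC box on either strand. The core of the hypoxia response element, ACGTG or its reverse complement CACGT, was in none of the 3 windows shown and in 16.6% of all windows, and the letters TATAAA or TTTATA were likewise in none of the 3 and in 12.4% of all. A second Vegfa window, before another annotated start at chr17:46025164-46025413 on the minus strand, held 1 hypoxia core and 1 GC box. RefSeq windows were found for 9 of the 10 genes, all but Thbs1. These matches describe letters in a short window and were not tested for binding.

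Library totals ran from 30191509 to 36514133 counts, and all levels below are CPM (counts scaled to library size, by TMM), as mean ± SD over 5 libraries unless each library is listed. Log2 fold changes, their standard errors (SE) and 95% intervals came from edgeR's quasi-likelihood fit to all 20 libraries, with p-values adjusted by Benjamini-Hochberg over the 15390 genes tested and a threshold of 0.05. Summed macrophage markers (12 genes, among them Adgre1, C1qa and Mrc1) lay between 21200 and 35100 CPM in macrophage libraries and between 6650 and 10100 CPM in monocyte libraries. Monocyte markers (11 genes, among them Ly6c2, Ccr2 and Plac8) lay between 10500 and 18700 CPM in monocytes and between 1170 and 4050 CPM in macrophages. Both sums thus matched the labels in every library. Of the 12 macrophage markers, 8 were called higher in macrophages than in monocytes in each treatment, and 1 was called lower in treated tumours. Of the 11 monocyte markers, 10 were called lower in macrophages in control tumours and 11 in treated tumours. Fibroblast markers other than collagens summed to 24.6 to 591 CPM in macrophage and 28.2 to 888 CPM in monocyte libraries, and 12 endothelial markers to 11.4 to 25.0 CPM over all libraries. Neutrophil markers (12 genes) summed to 50.7 to 125 CPM in macrophage and 195 to 583 CPM in monocyte libraries. In bulk RNA, a change in the number of cells of a type and a change in RNA per cell cannot be told apart.

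The deposited nRPKM values, which are scaled by gene length, allow the genes to be ranked against each other. In control macrophages Tgfbi was the highest at 1710 ± 356 nRPKM, followed by Vegfa (108 ± 27.7), Tgfb1 (97.4 ± 16.1) and Thbs1 (89.5 ± 15.7), whose ranges over libraries overlapped one another. Nrp1 (26.7 ± 7.04) and Vegfb (11.2 ± 2.42) came next without overlap. Vegfc (1.01 ± 0.707), Flt1 (0.769 ± 0.452) and Pgf (0.291 ± 0.0755) were near 1 nRPKM or lower, and the ranges of these 3 overlapped. Control monocytes had another order. Tgfbi (2820 ± 910 nRPKM) was followed by Thbs1 (775 ± 388), and Tgfb1 (255 ± 89.9) and Vegfa (235 ± 74.6) overlapped below it. Nrp1 (9.12 ± 2.47), Vegfb (8.47 ± 4.59), Flt1 (4.52 ± 0.911), Vegfc (2.07 ± 1.02) and Pgf (0.521 ± 0.127) completed the order, each overlapping its next neighbour except for Flt1 and Vegfc, at 3.38 to 5.54 and 0.575 to 3.02 nRPKM. Tgfb2 (Entrez 21808, chromosome 1, 186622787 to 186709697), the isoform of TGF-beta best known from mesenchymal and epithelial cells, was at the edge of detection. It had 0 to 12 reads per library, with 0 reads in 1 control and 2 anti-PD-L1 macrophage libraries. A count of 0 allows up to 3 reads, or 0.0994 CPM in the shallowest library, and Tgfb2 did not pass the filter on low counts and was not tested.

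**Figure D1:**
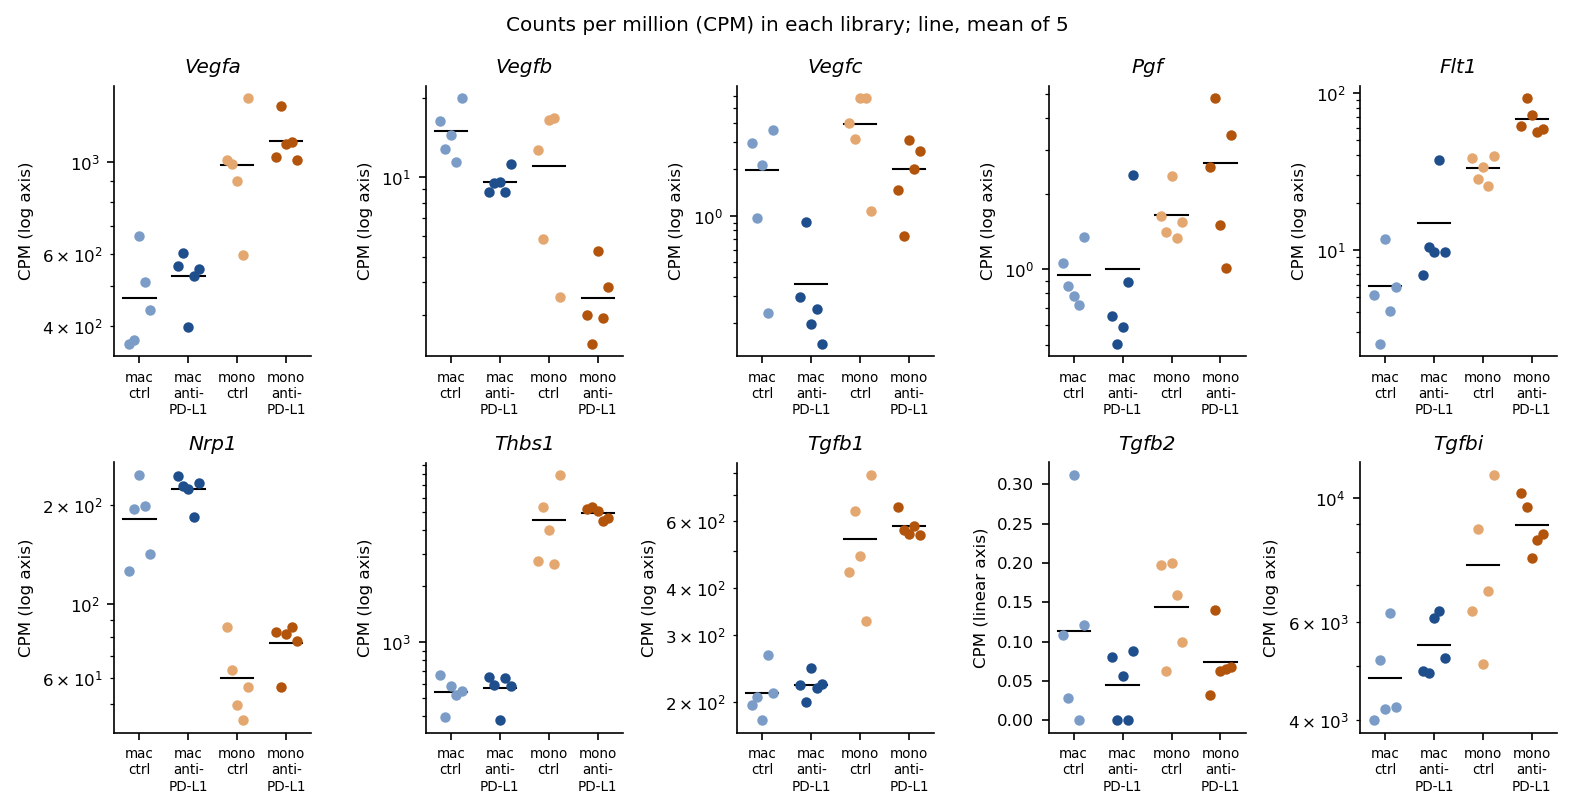
CPM of the 10 genes in each of the 20 libraries (points), with the mean of each group of 5 (line), on a log axis except for Tgfb2. Thbs1, Flt1, Vegfa and Tgfb1 sit higher in monocytes and Nrp1 higher in macrophages, and Vegfb in treated monocytes lies between 2.34 and 5.28 CPM.

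Between macrophages and monocytes of control tumours, 6 of the 9 tested members differed, 1 of them higher in macrophages and 5 lower. Of all genes tested, 24.0% were higher and 20% lower in macrophages. In anti-PD-L1 tumours all 9 tested members differed, 2 higher and 7 lower, beside 28.2% higher and 25.7% lower of all genes. The median log2 fold change of the 9 members, macrophage over monocyte, was -0.99 in control and -1.39 in treated tumours, beside 0.00 and -0.01 for all genes. Both counts of members, 6 and 9, were found in each of the 20 fits that left out 1 library. Neutrophil markers moved with the cell type as well: all 7 that were tested were lower in macrophages, with a median log2 fold change of -5.52 in control and -4.40 in treated tumours. S100a8 and S100a9, which monocytes also express, were at 35.7 ± 30.3 and 75.0 ± 74.0 CPM in control monocytes and at 0.204 ± 0.18 and 0.237 ± 0.208 CPM in control macrophages. The part of neutrophil RNA in the members' differences was not tested.

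Thbs1 (Entrez 21825, chromosome 2, 118111876 to 118127133), a matrix glycoprotein that inhibits endothelial cells and can activate latent TGF-beta, had the largest difference among the members. Control macrophages held 672, 397, 585, 520 and 546 CPM, and control monocytes 2740, 5370, 4020, 2630 and 7950 CPM. Every monocyte library was above every macrophage library. The log2 fold change, macrophage over monocyte, was -3.06 (SE 0.26, edgeR adjusted p = 2.59e-08), which is 8.35 times higher in monocytes, and in treated tumours -3.12 (SE 0.26, adjusted p = 1.41e-08), or 8.67 times. Thbs1 is also stored in platelets. The platelet marker sum was 46.3 to 157 CPM in macrophage and 5.74 to 20.4 CPM in monocyte libraries. Pf4, a chemokine of platelets and of some macrophages, had a median of 89.7 CPM in control macrophages beside 92.2 CPM for the sum, and of 7.33 CPM in control monocytes beside 11.4 CPM. Ppbp, a platelet chemokine, was at most 1.03 CPM in any library, and the part of platelet RNA in the Thbs1 difference was not tested.

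Flt1 (Entrez 14254, chromosome 5, 147561604 to 147726438), the receptor for Vegfa, Vegfb and Pgf, was at 5.85 ± 3.51 CPM in control macrophages and 33.2 ± 6.33 CPM in control monocytes. The groups did not overlap, and the log2 fold change was -2.50 (SE 0.42, edgeR adjusted p = 7.73e-05) in control and -2.21 (SE 0.41, adjusted p = 0.000144) in treated tumours. Endothelial cells also express Flt1. Cdh5, which encodes VE-cadherin and defines endothelial cells, was at 1.29 to 4.78 CPM over all libraries. It was also lower in control macrophages, by a log2 fold change of -0.60 (SE 0.19, adjusted p = 0.0135). The endothelial markers as a list went both ways. Of 9 tested, 1 was higher and 1 lower in control macrophages (median log2 fold change -0.16). In treated tumours 2 were higher and 3 lower (median -0.5). The part of endothelial RNA in the Flt1 difference was not tested. Nrp1 (Entrez 18186, chromosome 8, 128358591 to 128505476), a coreceptor for VEGF and class 3 semaphorins, ran in the opposite direction to Flt1. It was at 181 ± 48.2 CPM in control macrophages and 59.9 ± 15.9 CPM in control monocytes, 3.02 times higher in macrophages (log2 fold change 1.60, SE 0.18, adjusted p = 1.07e-06) and 2.90 times in treated tumours (1.53, SE 0.18, adjusted p = 1.09e-06).

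Vegfa (Entrez 22339, chromosome 17, 46016993 to 46032377), the main ligand of blood vessel growth, was at 362, 371, 663, 513 and 437 CPM in control macrophages and 1010, 991, 900, 596 and 1430 CPM in control monocytes. Monocyte replicate 4, at 596 CPM, lay below the highest macrophage library. The log2 fold change was -1.07 (SE 0.20, edgeR adjusted p = 0.000187), or 2.10 times higher in monocytes, and it was -1.09 (SE 0.20, adjusted p = 0.0001) in treated tumours, where the groups did not overlap (397 to 603 and 1010 to 1370 CPM). Tgfb1 (Entrez 21803, chromosome 7, 25687002 to 25705077), the TGF-beta isoform of leukocytes, was 2.53 times higher in control monocytes (536 ± 181 CPM) than in control macrophages (212 ± 32.7 CPM) and 2.62 times higher in treated ones (581 ± 41.7 and 222 ± 16.4 CPM), with edgeR adjusted p-values of 3.33e-06 and 1.44e-06. Tgfbi (Entrez 21810, chromosome 13, 56609586 to 56639359), a secreted adhesion protein first found as a gene induced by TGF-beta, was 1.60 and 1.63 times higher in monocytes (adjusted p = 0.00497 and 0.00273). The count of Tgfb1 reads per 1000 Tgfbi reads was 40.2 to 50.0 in control macrophages and 48.0 to 96.4 in control monocytes.

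Vegfb, Vegfc and Pgf passed the test between cell types in treated tumours and not in control tumours. With a block that joins a macrophage and a monocyte library of neighbouring sample numbers, which the labels do not call a pair, all 3 passed in control tumours too, Vegfb at 0.61 (adjusted p = 0.0134 in limma-voom), Vegfc at -1.27 (0.00411) and Pgf at -0.80 (0.0237), and Pgf also passed with the control libraries alone (-0.81, edgeR adjusted p = 0.028). Vegfb (Entrez 22340, chromosome 19, 6982472 to 6987651), a ligand of Flt1 linked to fatty acid handling and vessel survival, was 2.75 times higher in treated macrophages (9.57 ± 0.98 CPM) than in treated monocytes (3.48 ± 1.14 CPM), with a log2 fold change of 1.46 (SE 0.33, edgeR adjusted p = 0.000912). In control tumours its log2 fold change was 0.44 (SE 0.32, adjusted p = 0.285). Vegfc (Entrez 22341, chromosome 8, 54077532 to 54186454) was 5.61 times higher in treated monocytes than in treated macrophages (log2 fold change -2.49, SE 0.65, adjusted p = 0.003), and the value was -0.99 (SE 0.58, adjusted p = 0.178) in control tumours. Pgf (Entrez 18654, chromosome 12, 85166637 to 85177785), a ligand of Flt1, had log2 fold changes of -1.40 (SE 0.42, adjusted p = 0.00842) in treated and -0.80 (SE 0.42, adjusted p = 0.135) in control tumours, at 15 to 138 reads per library. The change of the cell type difference with treatment is the same test as the difference of treatment effects given further on, and none of the 3 passed it.

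**Figure D2:**
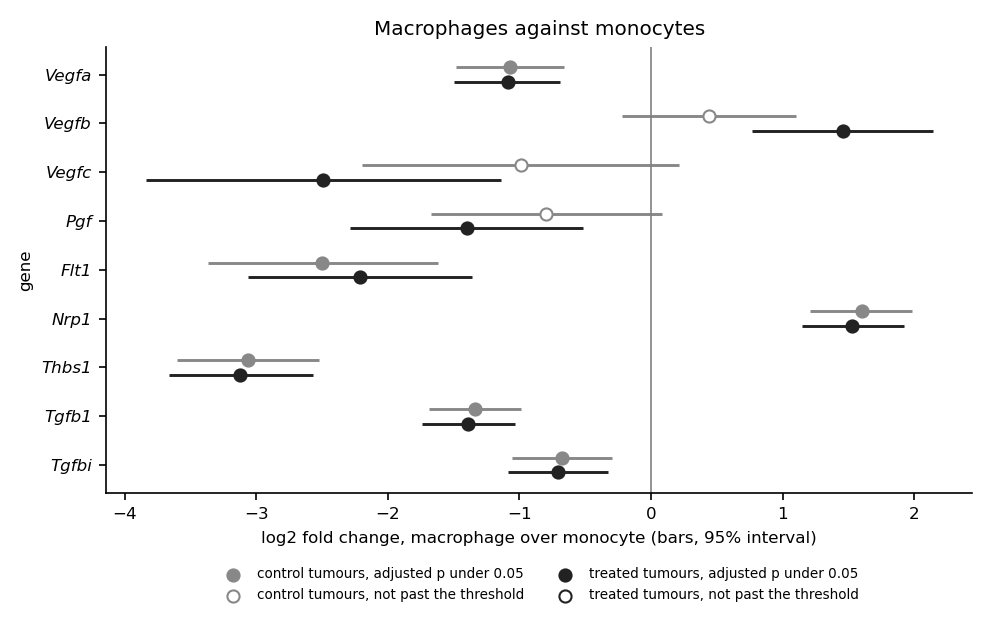
Log2 fold change of macrophages over monocytes in control (grey) and treated (black) tumours for the 9 tested genes, with 95% intervals. Filled points passed an adjusted p of 0.05, and the values run from -3.12 for Thbs1 in treated tumours to 1.60 for Nrp1 in control tumours.

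Genes of the same pathways were counted from lists that leave out the 10 members. Hypoxia-responsive genes, of which Vegfa is one, were mostly lower in macrophages: of 26 tested, 0 were higher and 15 lower in control tumours, with a median log2 fold change of -0.49, and 4 were higher and 14 lower in treated tumours. Among them Slc2a1, a glucose transporter, was at 332 ± 44.8 CPM in control macrophages and 640 ± 135 CPM in control monocytes (log2 fold change -0.95, SE 0.15, edgeR adjusted p = 5.63e-05), and Ankrd37, a hypoxia-induced ankyrin repeat gene, had a log2 fold change of -1.38 (SE 0.17, adjusted p = 1.98e-06). TGF-beta receptors and Smad regulators went both ways, with 5 higher and 8 lower of 17 in control tumours. For comparison with these lists, 24.0% of all genes tested were higher and 20% lower in macrophages of control tumours. In treated tumours 28.2% were higher and 25.7% lower. Tgfbr2, the receptor that binds the ligand, was higher in macrophages (337 ± 42.9 against 184 ± 13.4 CPM, log2 fold change 0.87, SE 0.10, adjusted p = 8.29e-07). Bambi, a decoy receptor of the family, was higher in monocytes (59.3 ± 11.8 against 19.2 ± 4.28 CPM, log2 fold change -1.62, SE 0.16, adjusted p = 1.92e-07). Of 16 TGF-beta target genes 2 were higher and 7 lower in control macrophages, where Pmepa1 (1.17, SE 0.19, adjusted p = 5.22e-05) was higher and Id1 (-1.40, SE 0.24, adjusted p = 9.04e-05) and Id3 (-1.37, SE 0.18, adjusted p = 5.85e-06) were lower on the log2 scale.

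Other ligands and carriers were also called in both directions. So were genes at large, with 24.0% of all tested higher and 20% lower in control macrophages. The genes named here are among those with the smallest p in their lists. Tgfb3, the third TGF-beta isoform, was higher in control macrophages (120 ± 35.8 against 47.8 ± 23.2 CPM, log2 fold change 1.32, SE 0.31, edgeR adjusted p = 0.00192), opposite to Tgfb1, and it was 1 of 2 higher genes among 15 ligands and activators, beside 1 lower. The platelet-derived growth factor Pdgfb (log2 fold change 1.59, SE 0.21, adjusted p = 7.38e-06) was higher and the urokinase receptor Plaur (-1.82, SE 0.19, adjusted p = 3.36e-07) lower in control macrophages, among 4 higher and 4 lower of 19 other angiogenic genes. Of 10 inhibitors of vessel growth 1 was higher, Vash1 (2.10, SE 0.25, adjusted p = 1.78e-06), and 2 were lower. Flt4, the receptor of Vegfc, was higher in macrophages in control tumours (3.26 ± 0.71 against 1.22 ± 0.492 CPM, log2 fold change 1.42, SE 0.31, adjusted p = 0.00109) and in treated tumours (5.33 ± 1.22 against 1.87 ± 0.916 CPM, 1.51, SE 0.31, adjusted p = 0.000404), among 2 higher and 1 lower of 8 other VEGF and semaphorin genes in control tumours.

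After anti-PD-L1, 1 of the 9 tested members changed in macrophages and 1 in monocytes, and both fell. In macrophages 1.73% of all genes tested were called higher and 2.92% lower, and in monocytes 9.92% higher and 15.4% lower. The macrophage split depended on the tool, since edgeR called 266 genes higher and 449 lower while limma-voom called 148 higher and 43 lower. In monocytes edgeR called 1526 higher and 2374 lower and limma-voom 1408 and 1377. The 9 members had a median log2 fold change of 0.08 in macrophages and 0.19 in monocytes, beside -0.01 and 0.02 for all genes.

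Vegfb fell in monocytes. Control monocyte libraries held 12.7, 5.83, 16.4, 16.8 and 3.51 CPM, and anti-PD-L1 libraries 3.01, 2.34, 5.28, 2.94 and 3.83 CPM. The groups overlapped, because the control library at 3.51 CPM lay within the treated range. The log2 fold change was -1.67 (SE 0.33, 95% interval -2.35 to -0.98, edgeR adjusted p = 0.00444), or 3.17 times lower after treatment, and it passed in each of the 20 fits without 1 library, with adjusted p-values of 0.000152 to 0.0174. With the collagen RNA level as a covariate the log2 fold change was -1.18 (adjusted p = 0.0713). In macrophages Vegfb was at 16.3, 12.8, 14.4, 11.4 and 19.9 CPM in control and 8.78, 9.53, 9.57, 8.79 and 11.2 CPM in treated libraries. These groups did not overlap, by 11.2 against 11.4 CPM, but the log2 fold change of -0.65 (SE 0.32, 95% interval -1.31 to 0.02, adjusted p = 0.225) did not pass. It passed only in a fit to the macrophage libraries alone (-0.65, adjusted p = 0.0431).

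Vegfc, the lymphatic growth factor, fell in macrophages. Control macrophages held 2.98, 0.969, 2.13, 0.231 and 3.62 CPM, from 8 to 149 reads, and treated macrophages 0.297, 0.906, 0.196, 0.246 and 0.146 CPM, from 5 to 27 reads. Of the control libraries, 4 were above all treated ones, and control replicate 4, at 0.231 CPM, lay among the treated. The log2 fold change was -2.48 (SE 0.64, 95% interval -3.83 to -1.14, edgeR adjusted p = 0.0432), or 5.59 times lower. The call held with DESeq2 (-2.46, adjusted p = 0.00287), without the filter on low counts (-2.49, adjusted p = 0.0483) and with macrophage libraries alone (-2.49, adjusted p = 0.0484). It was lost in 3 other settings, where the value was -2.30 (adjusted p = 0.184) with limma-voom, -2.31 (adjusted p = 0.127) with neighbouring libraries as a block and -1.0 (adjusted p = 0.673) with collagen RNA as a covariate. It was also lost in 12 of the 20 fits without 1 library, with adjusted p-values up to 0.125 without control macrophage replicate 5; the other 11 left out control macrophage replicates 1 and 3, anti-PD-L1 macrophage replicates 1, 3, 4 and 5, control monocyte replicates 1 and 2, and anti-PD-L1 monocyte replicates 1, 4 and 5. In monocytes Vegfc was at 4.0, 3.16, 5.78, 5.79 and 1.07 CPM in control and 1.46, 0.732, 3.12, 2.02 and 2.63 CPM in treated libraries, which overlapped, with a log2 fold change of -0.99 (SE 0.58, adjusted p = 0.218).

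Flt1 had higher means after treatment in both cell types and passed in neither. In monocytes the 5 control libraries held 38.5, 28.1, 33.9, 25.4 and 39.9 CPM and the 5 treated ones 61.3, 92.6, 72.9, 56.6 and 58.9 CPM. The groups did not overlap. The log2 fold change was 1.05 (SE 0.39, 95% interval 0.22 to 1.87, edgeR adjusted p = 0.0567), just outside the threshold, and it passed with DESeq2 (1.04, adjusted p = 0.0287), with limma-voom (1.04, adjusted p = 0.0236), with monocyte libraries alone (1.03, adjusted p = 0.029) and with the block (1.04, adjusted p = 0.0162). In macrophages the control libraries held 5.17, 2.51, 11.7, 4.06 and 5.78 CPM and the treated ones 6.87, 10.4, 9.74, 37.4 and 9.72 CPM. Treated replicate 4 stood far above the other treated libraries. The log2 fold change was 1.34 (SE 0.41, 95% interval 0.48 to 2.19, adjusted p = 0.0579), and without that replicate it was 0.71 (adjusted p = 0.172); DESeq2 gave 1.36 (adjusted p = 0.0096). Kdr, the other main receptor of Vegfa, rose in monocytes from 5.78 ± 1.32 to 10.6 ± 4.29 CPM (0.88 on the log2 scale, SE 0.30, edgeR adjusted p = 0.0366) and had -0.15 (SE 0.30, adjusted p = 0.807) in macrophages. The Kdr call was lost with monocyte libraries alone (adjusted p = 0.0603), with the block (0.0527), with the collagen covariate (0.276) and in 10 of the 20 fits without 1 library, up to 0.125 without treated monocyte replicate 2; the others left out control monocyte replicates 1, 3 and 4, treated monocyte replicates 3 and 4 and treated macrophage replicates 2, 3, 4 and 5. Cdh5 had -0.34 (SE 0.19, adjusted p = 0.181) in monocytes.

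The other 6 tested members passed in neither cell type. Vegfa had log2 fold changes of 0.17 (95% interval -0.23 to 0.57) in macrophages and 0.19 (-0.21 to 0.60) in monocytes, so the intervals leave room for changes of up to 0.60 on the log2 scale. Tgfb1 was at 0.07 (-0.28 to 0.42) and 0.12 (-0.23 to 0.46), Tgfbi at 0.20 (-0.18 to 0.58) and 0.23 (-0.15 to 0.61), and Thbs1 at 0.07 (-0.43 to 0.57) and 0.12 (-0.38 to 0.62). Nrp1 was at 0.29 (-0.08 to 0.67) and 0.36 (-0.02 to 0.73), and the monocyte value passed without control replicate 1 (0.52, edgeR adjusted p = 0.0408). Pgf had the widest intervals of these 6, at 0.08 (-0.81 to 0.96) and 0.68 (-0.18 to 1.54). Control monocytes spread more than treated ones for several members: Thbs1 was at 4540 ± 2210 CPM in control and 4940 ± 368 CPM in treated monocytes, and Tgfb1 at 536 ± 181 and 581 ± 41.7 CPM.

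The treatment effects of macrophages and monocytes were not shown to differ for any member. Over all 15390 genes, 0 passed the edgeR test of that difference, which is 0.0% (980 at an unadjusted p under 0.05), DESeq2 called 7 and limma-voom 0. For Vegfb the difference, macrophage minus monocyte effect, was 1.02 (SE 0.45, edgeR adjusted p = 0.759), and for Vegfc it was -1.49 (SE 0.85, adjusted p = 0.838). Flt1 had a difference of 0.29 (SE 0.56, adjusted p = 1.0). That Vegfb passed in monocytes alone and Vegfc in macrophages alone therefore does not show that they responded differently in these cells.

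**Figure D3:**
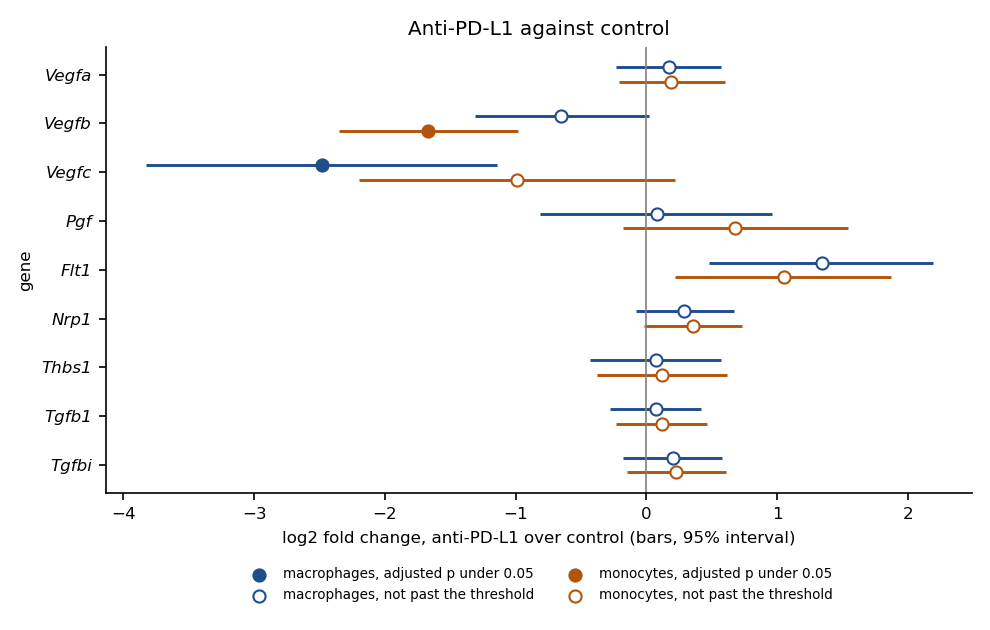
Log2 fold change of anti-PD-L1 over control in macrophages (blue) and monocytes (orange) for the 9 tested genes, with 95% intervals and filled points for an adjusted p under 0.05. Only Vegfc in macrophages (-2.48) and Vegfb in monocytes (-1.67) are filled, and both Flt1 points lie above 1.

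Several partners of these genes did change with treatment. Of 17 TGF-beta receptors and Smad regulators, 2 rose and 1 fell in macrophages, beside 1.73% higher and 2.92% lower of all genes tested. The endothelial-type receptor Acvrl1 was at 150 ± 20.4 CPM in control and 226 ± 16.8 CPM in treated macrophages, a rise of 0.59 on the log2 scale (SE 0.13, edgeR adjusted p = 0.0386), and the coreceptor Eng rose from 72.2 ± 10.6 to 107 ± 11.3 CPM (0.57, SE 0.13, adjusted p = 0.0397). Both rose in monocytes too, Acvrl1 from 116 ± 20 to 172 ± 28.1 CPM (0.57, SE 0.13, adjusted p = 0.00659) and Eng from 38.4 ± 6.86 to 51.6 ± 9.36 CPM (0.43, SE 0.14, adjusted p = 0.0274). Smad5, a transducer of the BMP branch, fell in monocytes (-0.50, SE 0.09, adjusted p = 0.00386). Nrros, which anchors latent Tgfb1 on myeloid cells, rose in monocytes from 233 ± 50.8 to 356 ± 29.4 CPM (0.61, SE 0.15, adjusted p = 0.00865), and Ltbp3, a latent TGF-beta binding protein, fell there from 42.7 ± 19.5 to 19 ± 3.15 CPM (-1.16, SE 0.23, adjusted p = 0.00433). Nrros was not called in macrophages, although control libraries held 133 to 225 CPM and treated ones 266 to 327 CPM. With the collagen level as a covariate each of these 7 calls was lost, with adjusted p-values of 0.0571 for Smad5 to 0.435 for Eng in macrophages. The log2 fold changes were then 0.48 for Acvrl1 and 0.44 for Eng in macrophages, and in monocytes 0.46 for Acvrl1, 0.31 for Eng, -0.41 for Smad5, 0.57 for Nrros and -0.89 for Ltbp3. Over all genes, 2 were called in macrophages with that covariate and 715 without it, and 154 and 3900 in monocytes. The collagen level was itself lower on average after treatment, as given below. That fit therefore cannot fully separate treatment from collagen level, and a lost call does not tie a change to collagen RNA. In macrophages the calls of Acvrl1 and Eng were both lost without control macrophage replicates 1 or 5, treated macrophage replicate 4 or control monocyte replicate 1, and that of Eng also without treated macrophage replicates 1 or 3, with adjusted p-values up to 0.098. The monocyte call of Eng was lost with monocyte libraries alone (0.40, adjusted p = 0.0768) and without control monocyte replicates 1, 3 or 4 or treated monocyte replicates 1, 2 or 4, up to 0.111.

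In the same 7 lists, the genes called lower in macrophages numbered 1 of 8 other VEGF and semaphorin genes, 3 of 19 other angiogenic genes, 3 of 10 inhibitors, 4 of 15 TGF-beta ligands and activators, 1 of 17 receptors, 2 of 16 targets and 0 of 26 hypoxia genes. The 14 genes were Sema3c, Mmp9, Angpt1, Apln, Col18a1, Thbs2, Sparc, Bmp1, Ltbp1, Itgb8, Fbn1, Tgfbr3, Postn and Ccn1, many of them known matrix or stromal genes, with log2 fold changes from -3.71 for Postn to -2.10 for Apln. Fibroblast markers other than collagens summed to 34.2 to 591 CPM in control and 24.6 to 127 CPM in treated macrophages, and to 103 to 888 and 28.2 to 190 CPM in monocytes. Fbn1, at a mean of 89.5 CPM in control macrophages, is in this marker list too, so its values enter both. The part of fibroblast RNA in these changes and in those of Vegfb and Vegfc was not tested. None of the 14 passed with limma-voom, with the block or with the collagen covariate. The median log2 fold change of the 10 inhibitors was -2.45 in macrophages and -1.93 in monocytes, and that of the 26 hypoxia genes 0.02 and 0.01, beside -0.01 and 0.02 for all genes. Over all genes tested, 2.92% were called lower in macrophages, and 15.4% lower and 9.92% higher in monocytes. In monocytes the same lists held 4, 6, 6, 7, 1, 4 and 2 lower genes and 1, 0, 1, 2, 2, 0 and 0 higher ones, in that order. Among those that fell there were Serpinf1, an inhibitor of vessel growth (81.1 ± 57.6 to 10.6 ± 9.4 CPM, log2 fold change -2.94, SE 0.74, edgeR adjusted p = 0.00992), Mmp2, a collagenase (51.9 ± 34.7 to 9.54 ± 5.77 CPM, -2.44, SE 0.51, adjusted p = 0.00484), and Angpt1, the ligand of Tek (2.23 ± 1.26 to 0.344 ± 0.238 CPM, -2.68, SE 0.74, adjusted p = 0.0154). These 3 passed in every fit without 1 library and lost the call with the collagen covariate, at adjusted p-values of 0.202, 0.0748 and 0.258. The 2 hypoxia genes that fell in monocytes were P4ha2 and Car9, with log2 fold changes of -1.11 (SE 0.30, adjusted p = 0.0146) and -0.80 (SE 0.22, adjusted p = 0.0154). Both calls were lost without control monocyte replicate 3, at adjusted p-values of 0.058 and 0.051.

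Collagen RNA itself varied widely between libraries and was lower on average after treatment. The collagen level, the mean log2 CPM of Col1a1, Col1a2 and Col3a1, was 4.63 ± 1.45 in control and 2.95 ± 0.75 in treated macrophages, a difference of -1.68 (two-sided exact permutation p = 0.0635). In monocytes it was 5.39 ± 1.12 and 3.81 ± 1.07, a difference of -1.58 (exact permutation p = 0.0635). Control macrophage replicate 4 (2.33) and control monocyte replicate 5 (3.62) were the lowest of their groups and have neighbouring sample numbers. Col3a1, a fibrillar collagen of fibroblasts, was at 676, 215, 641, 43.1 and 1120 CPM in control macrophages and 39.4, 178, 27.5, 18.2 and 34.2 CPM in treated ones, and Col1a1 was at 1.56 to 24.0 and 1.87 to 5.30 CPM. By itself Col3a1 differed by -3.04 log2 units in macrophages and -3.09 in monocytes (exact permutation p = 0.0159 and 0.0238), and the pair Col1a1 and Col1a2 by -1.0 and -0.82 (exact permutation p = 0.143 and 0.294).

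A slope on the collagen level within the 4 groups, common to all of them, was tested in each gene, and a gene was said to follow collagen RNA where its slope was positive and past the threshold. Vegfc was the 1 member that did with the level of these 3 collagens. Of all genes, 6.5% had a positive slope past the threshold and 0.741% a negative one. Vegfc rose by 0.77 log2 units per log2 unit of collagen level (SE 0.15, 95% interval 0.46 to 1.09, edgeR adjusted p = 0.00346), and it passed in every fit without 1 library and with DESeq2 and limma-voom. This fit takes the 20 libraries as independent, whereas those with neighbouring sample numbers had a correlation of 0.454 within blocks in this model. With the block the slope of Vegfc was 0.62 (limma-voom adjusted p = 0.0289). The slope did not pass with the level of Col1a1 and Col1a2 (0.65, adjusted p = 0.234), in monocyte libraries alone (0.51, adjusted p = 0.472) or in treated libraries alone (0.56, adjusted p = 0.555). Fitted apart for each cell type, it was 1.11 (SE 0.20, adjusted p = 0.0134) in macrophages and 0.50 (SE 0.19, adjusted p = 0.202) in monocytes, and the difference of 0.61 (SE 0.27) had an adjusted p of 1.0. In control macrophages Vegfc had 3.24 to 5.34 reads per 1000 Col3a1 reads, and in control monocytes 3.27 to 6.01. In treated macrophages this ratio was 4.28 to 13.5 and in treated monocytes 12.1 to 55.4, so there it did not overlap with the controls.

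Tgfbi ran against collagen RNA. Its slope was -0.19 (SE 0.04, 95% interval -0.28 to -0.10, edgeR adjusted p = 0.012), and the control monocyte library with the least collagen RNA had the most Tgfbi, at 11000 CPM beside 5050 to 8800 CPM in the other 4. The call was lost with the block (-0.14, limma-voom adjusted p = 0.156), without control macrophage replicate 4 (-0.19, adjusted p = 0.102), without control monocyte replicate 5 (-0.15, adjusted p = 0.0934), with the Col1a1 and Col1a2 level (-0.17, adjusted p = 0.234) and within each cell type, within control libraries (-0.23, adjusted p = 0.0797) and within treated libraries (-0.09, adjusted p = 0.633). Tgfb1 had a slope of -0.14 (SE 0.05, 95% interval -0.24 to -0.04, adjusted p = 0.0879) and passed with the level of 8 collagens (-0.13, adjusted p = 0.0278), of 14 fibroblast markers (-0.17, adjusted p = 0.0146) or of Col3a1 alone (-0.12, adjusted p = 0.0353). Vegfb was at 0.26 (SE 0.10, 95% interval 0.05 to 0.47, adjusted p = 0.136) and passed with the same 3 levels, at 0.28, 0.33 and 0.24 (adjusted p = 0.0144, 0.0181 and 0.0208). With the block neither passed, at 0.15 for Vegfb (adjusted p = 0.705) and -0.09 for Tgfb1 (adjusted p = 0.594). Whether the positive slope of Vegfb and the negative slope of Tgfb1 passed thus depended on the genes that made up the level. With the level of 3 collagens, that of Tgfb1 also passed once control monocyte replicate 4 was left out (-0.14, edgeR adjusted p = 0.00947).

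Slopes of the other 5 did not pass. Vegfa was at -0.05 (95% interval -0.19 to 0.09), Nrp1 at -0.04 (-0.17 to 0.10), Thbs1 at -0.09 (-0.26 to 0.08), Flt1 at 0.01 (-0.29 to 0.32) and Pgf at 0.10 (-0.21 to 0.41). These intervals leave room for positive slopes of up to 0.41 in Pgf and 0.32 in Flt1, and for negative ones such as that of Tgfbi in Vegfa, Thbs1, Flt1 and Pgf. In monocytes Thbs1 had a slope of -0.22 (SE 0.11, edgeR adjusted p = 0.3) and in macrophages 0.05 (SE 0.11, adjusted p = 1.0). With the collagen level as a covariate, 6 members passed between cell types in control and 9 in treated tumours, with Thbs1 at -3.10 and Nrp1 at 1.56 on the log2 scale in control tumours. There Vegfb moved from 0.44 to 0.70 (edgeR adjusted p = 0.0594) and Vegfc from -0.99 to -0.63 (adjusted p = 0.193), and neither passed.

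**Figure D4:**
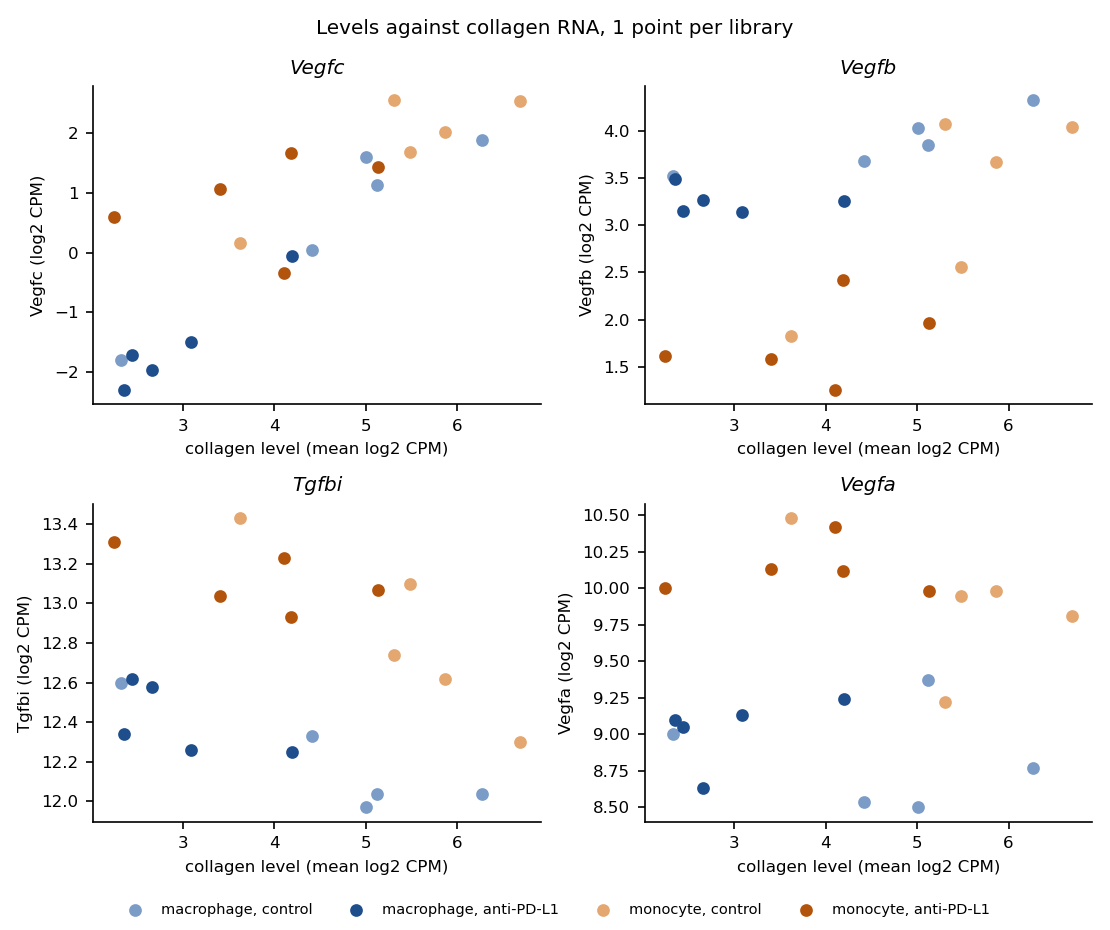
Log2 CPM of Vegfc, Vegfb, Tgfbi and Vegfa against the collagen level (mean log2 CPM of Col1a1, Col1a2 and Col3a1), 1 point per library and 1 colour per group. Vegfc climbs with collagen RNA (slope 0.77), Tgfbi falls (slope -0.19) and Vegfa shows no trend (slope -0.05).

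**Figure D5:**
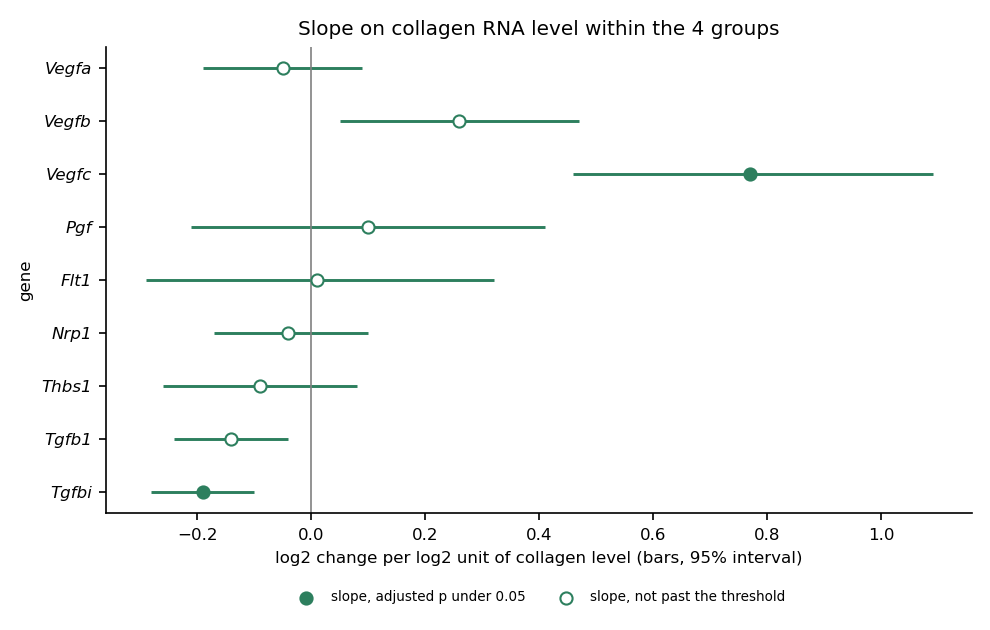
Slope of each tested gene on the collagen level within the 4 groups, with its 95% interval. Vegfc at 0.77 and Tgfbi at -0.19 are filled as past the threshold, and the interval of Vegfb, 0.05 to 0.47, lies above 0 without passing after adjustment over all genes.

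Related genes with a positive slope numbered 7 of 10 inhibitors of vessel growth, 6 of 15 TGF-beta ligands and activators, 3 of 8 other VEGF and semaphorin genes, 3 of 19 other angiogenic genes, 3 of 16 TGF-beta targets, 1 of 17 receptors and Smad regulators, and 0 of 26 hypoxia genes, and none of these lists held a negative one. Over all genes tested, 6.5% had a positive slope past the threshold and 0.741% a negative one. Vegfd, the closest relative of Vegfc, had a slope of 1.20 (SE 0.21, edgeR adjusted p = 0.00185) at 2.50 ± 1.86 CPM in control macrophages. Col18a1, the source of endostatin, had 1.07 (SE 0.15, adjusted p = 0.000532), Thbs2, the relative of Thbs1, had 1.08 (SE 0.22, adjusted p = 0.00508), and Fbn1, which anchors latent TGF-beta, had 1.0 (SE 0.15, adjusted p = 0.000952). Thbs2 lost its call without control macrophage replicate 4 (adjusted p = 0.0623). All 4 lost it with the level of Col1a1 and Col1a2 and in monocyte libraries alone, and Col18a1, Thbs2 and Fbn1 also lost it in treated libraries alone, a fit in which Vegfd was not tested.

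Likeness between genes was described by Pearson's r of log2 CPM over the 20 libraries after the group means were subtracted, without a test, since libraries share depth and composition. Vegfc was most like Pcolce (r = 0.96), Nedd4 (0.96) and Serpinh1 (0.95). Pcolce and Serpinh1 are collagen processing genes. Vegfb was most like Hspd1 (0.98), Ctps (0.97) and Dut (0.96), the first a mitochondrial chaperone and the others enzymes of nucleotide synthesis. Vegfa was most like Ptgs2 (0.90), Mxd1 (0.90) and Socs3 (0.88), Pgf like the chemokines Cxcl2 (0.82) and Cxcl1 (0.81) and Gpnmb (0.76), and Flt1 like Pdcd1lg2 (0.87), which encodes the second PD-1 ligand, Parp3 (0.80) and Nmrk1 (0.77). The values for Flt1 include anti-PD-L1 macrophage replicate 4, at 5.23 log2 CPM beside 2.79 to 3.39 in the rest of its group. They were not computed without that library. Nrp1 was most like Ipcef1 (0.87), Thbs1 like Reep3 (0.86), Tgfb1 like Dennd5a (0.95) and Tgfbi like Os9 (0.95). Among the members themselves the r was 0.66 between Vegfb and Vegfc, 0.71 between Tgfb1 and Tgfbi and 0.65 between Vegfa and Thbs1. Libraries with more Vegfb had less Tgfbi (-0.82) and less Tgfb1 (-0.78), and those with more Vegfc likewise had less Tgfbi (-0.78) and less Tgfb1 (-0.64).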

How the data were processed

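Each of the 20 deposited files holds 36528 gene models with 2 columns, per the file headers: the count of uniquely aligned reads and the nRPKM, an RPKM scaled by the authors. GSNAP and the build GRCm38 are named in the submitters' processing notes, and the sources used here do not give the aligner version, annotation, counting tool or strand setting. Per the labels' protocols, 0.1 ug of RNA per sample went into a kit for stranded total RNA, while the molecule label names polyA RNA. Without a stated strand setting, reads of overlapping antisense genes cannot be told apart. Symbols came from the RefSeq annotation of GRCm38.p6 and matched 31049 models (85.0%) with 97.97% of the counts.

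The deposited counts were used unchanged in R 4.3.3 with edgeR 4.0.16 (filterByExpr, TMM, quasi-likelihood test, 1 mean per group, 20 libraries). The deposited RPKM served only to compare levels between genes. Log2 CPM used a prior count of 2. A single read equals 0.0331 CPM in the shallowest library, and floors cover counting error only. Samples were grouped by the cell type and treatment in their titles, and replicates were numbered in accession order, which only names them. Comparisons were treatment within each cell type, the difference of these effects, cell types within each treatment, and the slope on the collagen level added to the group means. Collagen levels were compared by exact permutation over 252 ways (scipy 1.17.1). Alternatives were DESeq2 1.42.0, limma-voom (limma 3.58.1), no filter, the 2 groups alone, neighbouring sample numbers as a block, collagen as a covariate, other collagen levels, subsets of libraries and leaving out each library. The Col3a1 level, the Col1a1 and Col1a2 level, treated libraries alone, slopes per cell type and the block in the slope were chosen after seeing the data. The fits were also run on simulated counts drawn independently for each library, which cannot show error rates where neighbouring libraries are correlated. Named genes were the members, up to 4 called genes with the smallest p per list and comparison, fixed markers, and the 3 genes most like each member (mean log2 CPM 2 or more). The members and the lists were chosen with earlier results of these data known.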

Additional observations from a re-analysis of the deposited data

Results flagged for a closer look

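In 3 of 40 groups of 5 libraries (9 members and the collagen level in 4 groups each), 1 library lay farther from its nearest neighbour, relative to the range of the group, than Dixon's limit allows, which chance alone does in about 1 of 20 groups. Flt1 in anti-PD-L1 macrophages was at 5.23 log2 CPM in replicate 4 and at 2.79 to 3.39 in the other 4. Nrp1 in anti-PD-L1 monocytes was at 5.82 log2 CPM in replicate 2 and at 6.28 to 6.42 in the other 4. Thbs1 in anti-PD-L1 macrophages was at 8.57 log2 CPM in replicate 3 and at 9.18 to 9.35 in the other 4. Without these libraries the treatment effects were 0.71 for Flt1 in macrophages (edgeR adjusted p = 0.172), 0.43 for Nrp1 in monocytes (adjusted p = 0.114) and 0.24 for Thbs1 in macrophages (adjusted p = 0.618), none past the threshold. Why these libraries differ was not tested.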

How the results depend on the processing

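The counts of members that differed between cell types moved by at most 1.5 times in every alternative run, with 6 to 9 in control and 9 in treated tumours. For treatment in macrophages, where 1 member was called, the count was 2 with DESeq2, 0 with limma-voom, 2 with the 2 groups alone, 0 with the block and 0 with the collagen covariate, and 0 to 2 when 1 library was left out. For treatment in monocytes, also 1, it was 2 with DESeq2, 2 with limma-voom, 2 with the 2 groups alone, 2 with the block, 0 with the covariate, and 1 to 2 when 1 library was left out. For the slope, 2 members were called, 4 with the level of 8 collagens, 4 with fibroblast markers, 4 with Col3a1 alone, 0 with Col1a1 and Col1a2, 1 with the block, 1 in macrophages, 0 in monocytes, 1 in control and 0 in treated libraries, and 1 to 3 when 1 library was left out. The difference in collagen level was -2.56 in macrophages and -2.62 in monocytes with 8 collagens, -1.99 and -1.83 with fibroblast markers and -3.04 and -3.09 with Col3a1. It ran from -2.25 to -1.27 and from -2.02 to -1.19 when 1 library was left out, and passed without control macrophage replicate 4 (exact permutation p = 0.0159), without control monocyte replicate 5 (0.0159) and without anti-PD-L1 monocyte replicate 5 (0.0476).

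The genes called in macrophages numbered 715 and ranged from 14 to 1928 when 1 library was left out, with 1878 by DESeq2, 191 by limma-voom, 1193 in the 2 groups alone, 243 with the block and 2 with the covariate. In monocytes 3900 were called, 1883 to 5359 when 1 library was left out, 2019 in the 2 groups alone and 154 with the covariate. For the difference of effects up to 41 were called when 1 library was left out and 8 with the block. For the slope 1114 were called, 339 to 1477 when 1 library was left out, 2166 with 8 collagens, 2311 with fibroblast markers, 1971 with Col3a1, 606 with the block, 6 with Col1a1 and Col1a2, 622 in macrophages, 1 in monocytes and 0 in treated libraries. The replicate block joined a macrophage and a monocyte library with neighbouring sample numbers, which the labels do not call a pair; the correlation within these blocks was 0.53. Counts of Vegfc, Pgf and Tgfb2 were low enough for depth to limit their precision. The causes of these changes were not tested.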

Other observations

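Vegfb and Vegfa reads were also set against each other within libraries, where depth cancels. Vegfb had 21.7 to 45.6 reads per 1000 Vegfa reads in control macrophages and 15.7 to 24.1 in treated ones, and 2.46 to 28.2 in control and 1.71 to 4.75 in treated monocytes. The control and treated ranges overlapped in both cell types. In treated tumours 3 partners of the members also differed between the cell types on the log2 scale, macrophage over monocyte, in every alternative run. Vash1, an inhibitor of vessel growth made by endothelial cells in response to VEGF, was at 2.98 (SE 0.26, edgeR adjusted p = 2.83e-08). Kdr was at -1.19 (SE 0.30, adjusted p = 0.00236), and the latent TGF-beta binding protein Ltbp3 at 1.20 (SE 0.23, adjusted p = 0.000189). These 3 were not alone: Plaur, Tgfbr2 and Bambi also passed there in each of the 20 fits without 1 library. Over all genes tested, 28.2% were higher and 25.7% lower in treated macrophages than in treated monocytes.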
